A study of Homo sapiens with 18 samples.

Results

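DOT1L and the genes of its partner proteins were followed at the RNA level in WM989, an established human melanoma cell line. The set was chosen by name and consisted of 10 genes: DOT1L, MLLT1, MLLT3, MLLT6, MLLT10, AFF1, AFF3, AFF4, TRRAP and SKP1. Of the 63677 genes in the deposited count table, 9 were matched to a listed gene through their Ensembl identifiers. MLLT6 was not matched and is not analysed here. All 9 matched genes passed the filter on low counts, which was applied by group and left 18121 genes.

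DOT1L is the methyltransferase that places methyl groups on lysine 79 of histone H3 in the body of transcribed genes, and it works as part of larger protein assemblies. MLLT1 (ENL) and MLLT3 (AF9) are paralogs with a YEATS domain that reads acylated histones, and each can bind either DOT1L or an AFF protein. MLLT10 (AF10) is a cofactor of DOT1L, and MLLT6 (AF17) is its paralog. AFF1, AFF3 and AFF4 are related scaffold proteins, of which AFF1 and AFF4 are best known as the backbones of the super elongation complex that brings the kinase P-TEFb to paused RNA polymerase II. TRRAP is the large scaffold of the TIP60 and SAGA histone acetyltransferase complexes, and SKP1 is the adaptor of SCF ubiquitin ligases. Several of these genes are fusion partners of KMT2A (MLL1) in leukaemia, where DOT1L inhibitors were first developed.

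Poly(A)-selected RNA had been sequenced in 18 libraries that form 6 groups of 3. Cells were kept for 7 days in 4 µM EPZ5676 (pinometostat), an inhibitor of the catalytic site of DOT1L, or in the solvent DMSO, and each treatment was sampled as bulk cells and as sorted pools with high or with low amounts of the receptors NGFR and EGFR on the surface (called high and low cells). The groups are therefore EPZ5676 bulk, EPZ5676 high, EPZ5676 low, DMSO bulk, DMSO high and DMSO low, all from 1 cell line, and the labels do not say whether the 3 libraries of a group came from separate cultures. EPZ5676 acts on the enzyme and not on its transcript, so the DOT1L count is no check of the inhibition. The comparisons ask how the complex members differ with DOT1L inhibition, how they differ between cells with high and with low NGFR and EGFR, and whether the first depends on the second.

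Gene counts per library ran from 13383741 to 26311674. In 6 libraries (EPZ5676 bulk replicates 1 and 3, EPZ5676 high replicates 1 and 2, EPZ5676 low replicate 1 and DMSO high replicate 3) reads on no feature made up 18.9% to 28.7% of the total, against 12.8% to 15.2% in the other 12. DMSO bulk replicate 1 stood apart from its group, with a summed NGFR and EGFR level of 249 CPM (the TMM-scaled share of a gene in its library's gene counts), while the lowest library of its group had 18.8 CPM and the EPZ5676 bulk libraries had 41.4 to 47.6 CPM. NGFR and EGFR together came to 714 to 829 CPM in EPZ5676 high cells and 5.85 to 11.5 CPM in EPZ5676 low cells, and to 610 to 685 CPM in DMSO high cells and 2.89 to 4.26 CPM in DMSO low cells. All 7 melanocyte markers (MITF, SOX10, PMEL, MLANA, DCT, TYR and TYRP1) were detected in every group. Their summed level was 1710 to 1874 CPM in EPZ5676 high cells and 13883 to 14066 CPM in EPZ5676 low cells, and 1118 to 1329 CPM in DMSO high cells and 11119 to 11589 CPM in DMSO low cells. In bulk cells it was 12426 to 12702 CPM under EPZ5676 and 4805 to 10304 CPM under DMSO. The 8 fibroblast markers were COL1A1, COL1A2, COL3A1, DCN, LUM, PDGFRA, FAP and THY1. Their summed level moved the other way, with 602 to 742 CPM in EPZ5676 high cells and 97.6 to 100.2 CPM in EPZ5676 low cells. Under DMSO it was 1074 to 1409 CPM in high cells and 72.3 to 75.4 CPM in low cells. The single genes did not all follow the sum: of the 7 tested, edgeR called 6 higher and 1 lower in high cells under each treatment. In bulk cells the fibroblast sum was 116 to 120.3 CPM under EPZ5676 and 89.9 to 429.6 CPM under DMSO. The 4 leukocyte markers summed to at most 1.43 CPM, the 4 endothelial markers to at most 13.1 CPM and the 4 keratinocyte markers to at most 43.0 CPM in any library, each with at least 1 marker at 0 in every group. The part of these marker differences in the results below was not tested. In bulk libraries and in sorted pools, fewer cells of a type and less RNA per cell cannot be told apart.

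The sequences just before the transcription starts of the AFF genes are shown because these genes differed in their calls. AFF3 was the member called between EPZ5676 and DMSO, in bulk and low cells but not in high cells. Under EPZ5676, AFF4 was lower in high than in low cells while AFF1 and AFF3 were higher. The sequences come from the RefSeq promoter table for GRCh38.p14, where 8 of the 10 listed genes had 11 entries. Each line gives the 250 bases before the start, 5′ to 3′ on the strand of the gene, in lower case with every CG dinucleotide in capitals.
AFF3, bases before the start, chr2:100142591-100142840 (minus strand): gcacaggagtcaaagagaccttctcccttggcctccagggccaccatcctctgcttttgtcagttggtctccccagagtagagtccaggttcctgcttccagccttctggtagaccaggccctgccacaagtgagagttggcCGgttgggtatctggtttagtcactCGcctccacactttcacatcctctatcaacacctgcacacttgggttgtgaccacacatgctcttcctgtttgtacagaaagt
AFF3, bases before the start, chr2:100105584-100105833 (minus strand): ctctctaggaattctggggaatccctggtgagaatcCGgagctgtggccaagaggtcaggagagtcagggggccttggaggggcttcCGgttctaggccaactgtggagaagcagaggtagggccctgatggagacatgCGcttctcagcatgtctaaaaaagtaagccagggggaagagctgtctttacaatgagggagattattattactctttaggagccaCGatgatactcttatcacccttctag
AFF1, bases before the start, chr4:86934761-86935010 (plus strand): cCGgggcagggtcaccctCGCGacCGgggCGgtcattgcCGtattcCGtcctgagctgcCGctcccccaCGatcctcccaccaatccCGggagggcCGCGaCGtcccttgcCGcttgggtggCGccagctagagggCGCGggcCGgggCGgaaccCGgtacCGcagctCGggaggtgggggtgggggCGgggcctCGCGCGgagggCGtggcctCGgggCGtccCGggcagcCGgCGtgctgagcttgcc
AFF4, bases before the start, chr5:132963635-132963884 (minus strand): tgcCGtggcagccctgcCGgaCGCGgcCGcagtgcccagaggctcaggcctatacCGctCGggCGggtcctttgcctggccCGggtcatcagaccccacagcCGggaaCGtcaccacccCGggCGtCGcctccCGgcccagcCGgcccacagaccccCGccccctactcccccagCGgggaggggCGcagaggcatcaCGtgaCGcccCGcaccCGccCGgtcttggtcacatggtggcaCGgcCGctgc
The AFF3 promoters held 2 and 4 CG dinucleotides, against 32 in the AFF1 promoter shown and 26 in the AFF4 promoter. A second AFF1 promoter in the table, not shown, held 31. The 9 promoters other than those of AFF3 of the listed genes held 13 to 39, and the median over the 35116 promoters in the table was 11. As few CG dinucleotides as in the AFF3 promoters occurred in 22.9% of all promoters for the first and in 34.3% for the second. CG reads the same on both strands, and a count of it is a description of the sequence only. The counts do not say which start was used in these cells.

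DOT1L was higher in cells with high than with low NGFR and EGFR under both treatments, and its level was lower in each EPZ5676 group than in the DMSO group of the same sort, by amounts that did not pass the test. The DOT1L level was 185, 186 and 179.6 CPM in the EPZ5676 high libraries and 121, 118 and 114 CPM in the EPZ5676 low libraries. It was 211, 196 and 217 CPM in the DMSO high libraries and 125, 127 and 124 CPM in the DMSO low libraries. No high library overlapped a low library of the same treatment. The difference between high and low cells was 1.56-fold under EPZ5676 (log2 fold change 0.64 ± 0.07 SE, adjusted p = 1.82e-07, edgeR quasi-likelihood test with Benjamini-Hochberg adjustment) and 1.66-fold under DMSO (0.73 ± 0.07, adjusted p = 1.52e-08). The difference between these effects was a log2 value of -0.09 ± 0.10 with an adjusted p of 0.785 by edgeR.

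In bulk cells DOT1L had 127, 121 and 127 CPM under EPZ5676 and 169, 147 and 131 CPM under DMSO. The EPZ5676 bulk libraries lay close together and below every DMSO bulk library, whose highest value was the library that stood apart. The log2 difference was -0.25 ± 0.07 with an adjusted p of 0.0884 by edgeR, and without DMSO bulk replicate 1 it was -0.15 with an adjusted p of 0.144. Without DMSO bulk replicate 3 it was -0.34 and passed, with an adjusted p of 0.00949. DESeq2 also called it, with an adjusted p of 0.0418, as did edgeR with no filter on low counts (0.0174). In high cells the difference between EPZ5676 and DMSO was -0.18 ± 0.07 (adjusted p = 0.164, edgeR), and among the alternatives run it passed in 1, without DMSO bulk replicate 1 in the shared spread (adjusted p = 0.0147). In low cells it was -0.09 ± 0.07 (adjusted p = 0.638, edgeR). The libraries of EPZ5676 and DMSO did not overlap in any of the 3 sorts. Such a gap between the libraries, in either direction, was found for 15.9% of all tested genes in the bulk comparison, 24.8% in the high and 23.1% in the low one. Averaged over high and low cells the log2 difference was -0.14 ± 0.05 (adjusted p = 0.121, edgeR), and the adjusted p was 0.00898 without DMSO bulk replicate 1 and 0.0127 with only the groups compared.

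Ordered by its mean, DOT1L was highest in DMSO high cells, followed by EPZ5676 high, DMSO bulk, DMSO low, EPZ5676 bulk and EPZ5676 low cells. Of the neighbours in that order, the libraries of DMSO low and EPZ5676 bulk cells overlapped, and those of the other neighbours did not. Part of the DOT1L exons overlaps PLEKHJ1 on the opposite strand, a gene with 26448 counts over the 18 libraries beside 50982 for DOT1L. The strand setting of the counting is not given in the sources used here, so reads from the shared stretch cannot be told apart.

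**Figure D1:**
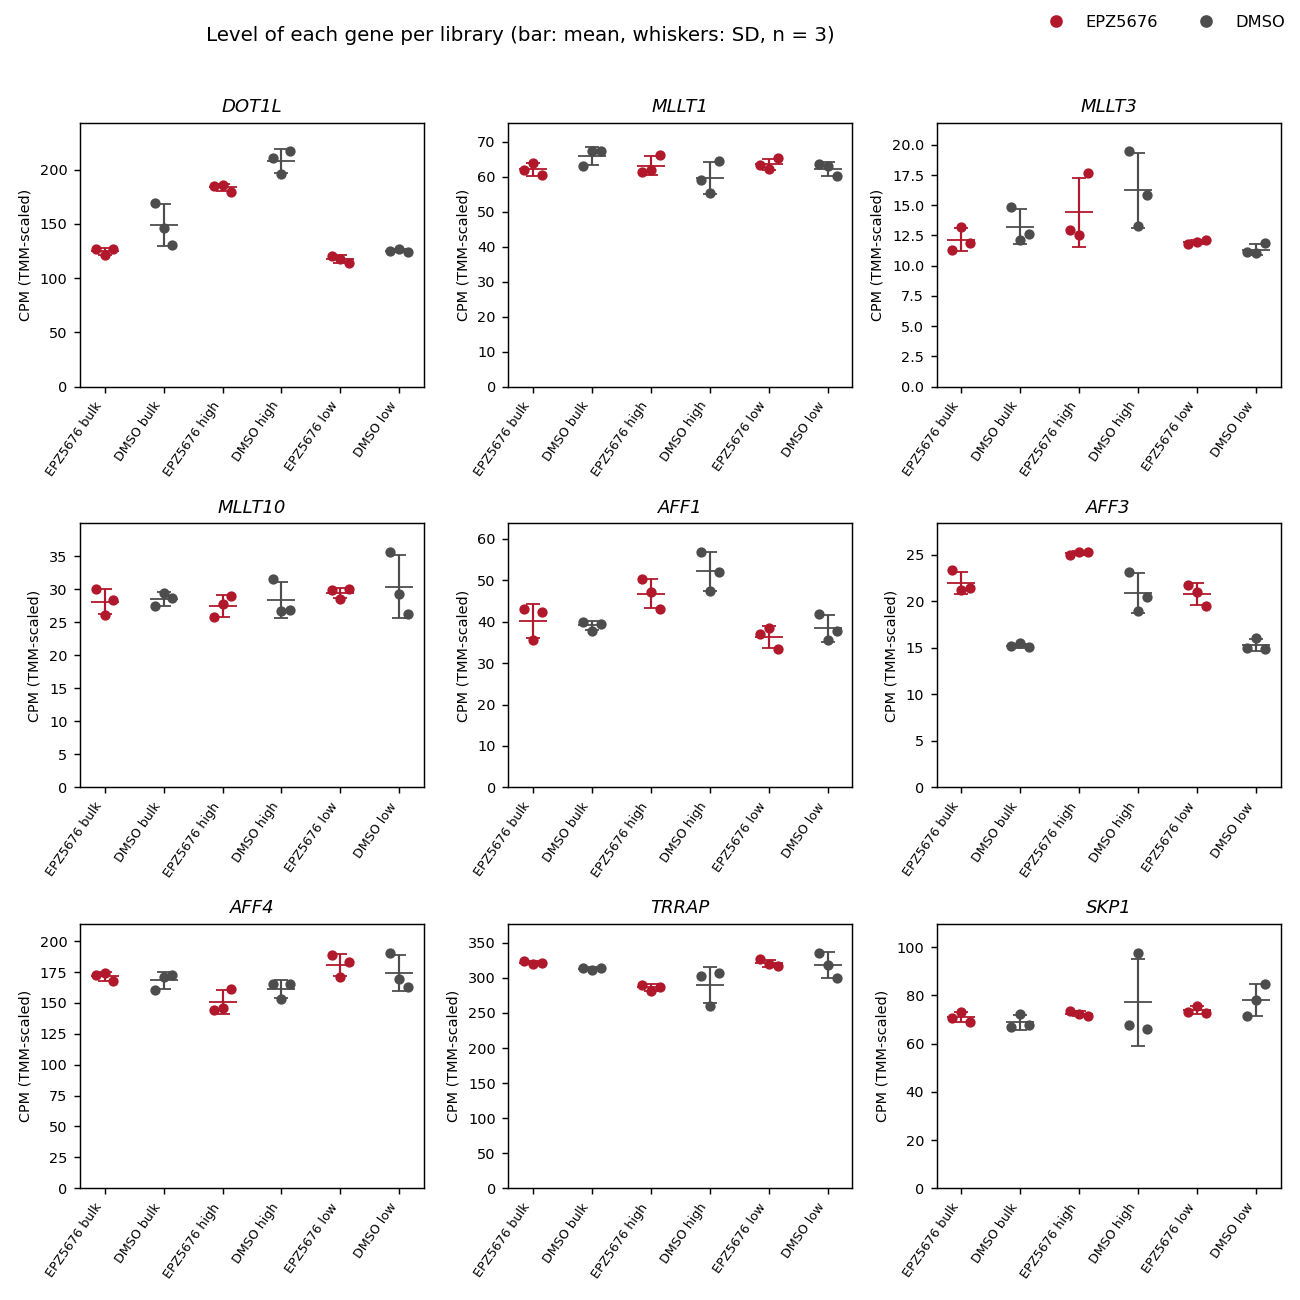
Level of the 9 measured genes in each library, in TMM-scaled CPM on a linear axis from 0, with EPZ5676 in red and DMSO in grey. Points are libraries, the bar is the mean and the whiskers are the SD of 3 libraries. DOT1L is highest in both high groups, AFF3 is above DMSO in each EPZ5676 group, and the MLLT1 and MLLT10 libraries overlap in all 5 comparisons.

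Of the YEATS readers, MLLT3 was higher in high than in low cells under DMSO, while MLLT1 did not pass in any comparison. MLLT3 had 12.98, 12.6 and 17.7 CPM in the EPZ5676 high libraries and 11.8, 12.0 and 12.1 CPM in the EPZ5676 low libraries. Under DMSO it had 19.5, 13.3 and 15.9 CPM in high libraries and 11.1, 11.05 and 11.9 CPM in low libraries. High libraries lay above low libraries under both treatments, by little more than 1 CPM for the lowest DMSO high library and by less for the lowest EPZ5676 high library. The log2 difference between high and low cells was 0.27 ± 0.14 under EPZ5676 (adjusted p = 0.109, edgeR) and 0.51 ± 0.14 under DMSO (adjusted p = 0.00294, edgeR). With only the groups compared in the fit, MLLT3 also passed under EPZ5676 (adjusted p = 0.0404), and without EPZ5676 high replicate 3 the difference was 0.09 (adjusted p = 0.612). The difference between these effects was -0.24 ± 0.19 (adjusted p = 0.695, edgeR). MLLT3 is a gene of low counts, with 4498 reads over the 18 libraries.

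MLLT1, the other YEATS reader, had 61.3, 62.0 and 66.3 CPM in EPZ5676 high cells and 63.3, 62.2 and 65.3 CPM in EPZ5676 low cells. In DMSO high cells it had 59.2, 55.5 and 64.6 CPM, and in DMSO low cells 63.7, 63.1 and 60.1 CPM. Its groups overlapped in all 5 comparisons, and its log2 differences ran between -0.09 and 0.08. Within a library, MLLT3 had 20.3 to 26.7 reads per 100 MLLT1 reads in EPZ5676 high cells and 18.5 to 19.3 in EPZ5676 low cells. It had 24.0 to 32.9 per 100 in DMSO high cells and 17.4 to 19.7 in DMSO low cells. This ratio of reads does not depend on how libraries are scaled and is not corrected for gene length. It was higher in high than in low cells without overlap under both treatments, by 0.26 on the log2 scale under EPZ5676 and by 0.56 under DMSO. Without the 6 libraries with a high no-feature share, the difference under EPZ5676 was 0.50, with EPZ5676 high replicate 3 alone in its group. That library had the highest ratio of the EPZ5676 high libraries.

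MLLT10, the DOT1L cofactor, ran between 25.7 and 35.7 CPM over all 6 groups, and the libraries of its groups overlapped in all 5 comparisons. Its log2 differences lay between -0.10 and -0.02. The highest value was DMSO low replicate 1, in a group whose other libraries had 29.2 and 26.3 CPM. MLLT10 has 2 named pseudogenes with 234 counts in all, beside 9810 for the gene.

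Among the AFF scaffolds, AFF3 was the member that rose with EPZ5676, and it was also higher in high than in low cells. The AFF3 level in bulk cells was 23.4, 21.2 and 21.4 CPM under EPZ5676 and 15.2, 15.5 and 15.1 CPM under DMSO. In low cells it was 21.8, 21.0 and 19.5 CPM under EPZ5676 and 15.03, 16.02 and 14.8 CPM under DMSO. The groups were well apart in both sorts. AFF3 rose 1.44-fold in bulk cells (log2 fold change 0.53 ± 0.09 SE, adjusted p = 0.00442, edgeR) and 1.36-fold in low cells (0.44 ± 0.09, adjusted p = 0.0109, edgeR). In high cells AFF3 had 25.0, 25.2 and 25.3 CPM under EPZ5676 and 23.2, 19.0 and 20.4 CPM under DMSO. The EPZ5676 high libraries were nearly equal and lay above each DMSO high library, and the log2 difference of 0.27 ± 0.09 did not pass (adjusted p = 0.0907, edgeR). The EPZ5676 effect on AFF3 was not shown to differ between high and low cells, with a difference of -0.17 ± 0.12 (adjusted p = 0.656, edgeR).

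Averaged over high and low cells the AFF3 rise was 1.28-fold (log2 fold change 0.36 ± 0.06, adjusted p = 0.00127, edgeR). The AFF3 calls were lost without the 6 libraries with a high no-feature share. The log2 difference was then 0.48 in bulk, 0.41 in low and 0.34 in averaged cells, against 0.53, 0.44 and 0.36 with all libraries. That omission left EPZ5676 bulk replicate 2 and EPZ5676 high replicate 3 alone in their groups, and EPZ5676 low replicates 2 and 3. Whether the calls were lost through this loss of replication was not tested. With the no-feature share as a covariate, the AFF3 calls in bulk, low and averaged cells were kept. The summed melanocyte markers were also above DMSO in EPZ5676 bulk, high and low cells with no overlap, and their part in the AFF3 difference was not tested. Taken singly, 0 of the 7 markers were called in bulk cells, 1 (higher) in high cells and 0 in low cells by edgeR. Without the 6 libraries and DMSO bulk replicate 1, AFF3 passed again in low cells, and its log2 difference in bulk was 0.47. In low cells the call was lost on leaving out DMSO low replicate 1 or 3 or EPZ5676 low replicate 1 or 2, with adjusted p-values up to 0.0712. In high cells AFF3 passed without DMSO bulk replicate 1 (adjusted p = 0.0357) and without DMSO high replicate 1 (0.0486).

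Between sorts, AFF3 was 1.21-fold higher in high cells under EPZ5676 (log2 fold change 0.28 ± 0.08, adjusted p = 0.00885, edgeR) and 1.36-fold higher under DMSO (0.45 ± 0.09, adjusted p = 0.000135, edgeR). High and low libraries did not overlap under either treatment. Ordered by its mean, AFF3 was highest in EPZ5676 high cells, then EPZ5676 bulk, DMSO high, EPZ5676 low, DMSO low and DMSO bulk cells. EPZ5676 bulk overlapped DMSO high, DMSO high overlapped EPZ5676 low, and DMSO low overlapped DMSO bulk. AFF3 had 6747 reads over the 18 libraries, and the gene that overlaps its exons had 42.

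AFF1 was higher in high than in low cells and did not pass between EPZ5676 and DMSO. It had 50.2, 47.1 and 43.0 CPM in EPZ5676 high cells and 36.9, 38.5 and 33.4 CPM in EPZ5676 low cells. It had 56.8, 47.5 and 52.0 CPM in DMSO high cells and 41.8, 35.6 and 37.7 CPM in DMSO low cells. High and low libraries did not overlap. The difference was 1.29-fold under EPZ5676 (log2 fold change 0.37 ± 0.09, adjusted p = 0.00148, edgeR) and 1.36-fold under DMSO (0.44 ± 0.09, adjusted p = 0.000176, edgeR). EPZ5676 and DMSO libraries of AFF1 overlapped in all 3 sorts, with log2 differences of 0.04 for bulk, -0.16 for high and -0.08 for low cells.

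AFF4, a scaffold of the super elongation complex, was lower in high than in low cells under EPZ5676. Its level was 145, 146 and 162 CPM in EPZ5676 high cells and 188, 171 and 183 CPM in EPZ5676 low cells. Under DMSO it was 166, 153 and 165 CPM in high cells and 191, 169 and 163 CPM in low cells. The groups were apart under EPZ5676 and overlapped under DMSO. The log2 difference of high against low cells was -0.26 ± 0.06 under EPZ5676 (adjusted p = 0.00138, edgeR), and under DMSO it was -0.11 ± 0.06 (adjusted p = 0.136, edgeR). The difference between these effects was -0.15 ± 0.09 (adjusted p = 0.561, edgeR). With libraries scaled by their size alone, AFF4 also passed under DMSO, with a log2 difference of -0.18 and an adjusted p of 0.0215.

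Counted within each library, both AFF ratios differed by sort, and the AFF3 to AFF4 ratio also differed by treatment. AFF3 had 12.2 to 13.5 reads per 100 AFF4 reads in EPZ5676 bulk cells and 8.71 to 9.45 in DMSO bulk cells. It had 15.7 to 17.3 per 100 in EPZ5676 high cells and 12.4 to 14.0 in DMSO high cells. In low cells it had 10.7 to 12.3 per 100 under EPZ5676 and 7.88 to 9.46 under DMSO. In each sort the EPZ5676 libraries lay above the DMSO libraries, and under each treatment the high libraries lay above the low libraries. The AFF3 to AFF4 ratio was higher under EPZ5676 by 0.50, 0.38 and 0.39 on the log2 scale in bulk, high and low cells. Without the 6 libraries with a high no-feature share, the value in high cells was 0.25, with EPZ5676 high replicate 3 alone in its group. The ratio was higher in high than in low cells by 0.54 under EPZ5676 and 0.55 under DMSO. AFF1 had 26.6 to 34.7 reads per 100 AFF4 reads in EPZ5676 high cells and 18.2 to 22.5 in EPZ5676 low cells. It had 31.0 to 34.3 per 100 in DMSO high cells and 21.0 to 23.1 in DMSO low cells. The AFF1 to AFF4 ratio did not overlap between sorts, with log2 differences of 0.63 under EPZ5676 (0.39 without the 6 libraries) and 0.55 under DMSO, and it overlapped between EPZ5676 and DMSO in all 3 sorts. These ratios are described without a test.

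**Figure D2:**
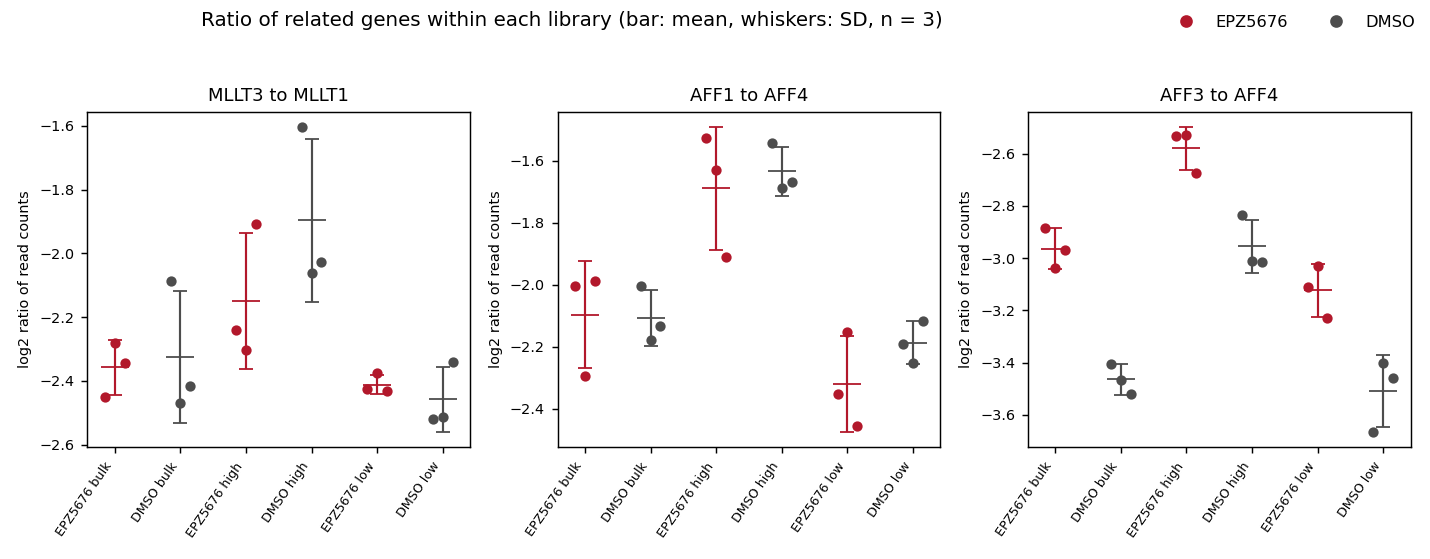
Log2 ratio of read counts within each library for MLLT3 to MLLT1, AFF1 to AFF4 and AFF3 to AFF4, with EPZ5676 in red and DMSO in grey. Points are libraries, the bar is the mean and the whiskers are the SD of 3 libraries, and the axes do not start at 0. The AFF3 to AFF4 ratio is higher under EPZ5676 in every sort, and all 3 ratios are higher in high than in low cells.

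TRRAP, the acetyltransferase scaffold, was slightly lower in high than in low cells. It had 290.5, 282 and 287 CPM in EPZ5676 high cells and 326, 319.5 and 317 CPM in EPZ5676 low cells. Under DMSO it had 303, 260.2 and 307 CPM in high cells and 336, 319 and 300.2 CPM in low cells. The groups were apart under EPZ5676 and overlapped under DMSO. The log2 difference of high against low cells was -0.16 ± 0.06 under EPZ5676 (adjusted p = 0.0197, edgeR) and -0.13 ± 0.06 under DMSO (adjusted p = 0.0487, edgeR). The DMSO call sat at the threshold: it remained in 5 of the 18 fits that leave out 1 library, and without DMSO high replicate 2 the difference was -0.06 (adjusted p = 0.32). The EPZ5676 call was lost without EPZ5676 low replicate 1 (adjusted p = 0.0581) or EPZ5676 high replicate 2 (0.0656). In bulk cells TRRAP had 324, 319.7 and 321 CPM under EPZ5676 and 313, 311 and 315 CPM under DMSO, which did not overlap although the difference of 0.04 ± 0.06 did not pass (adjusted p = 0.849, edgeR). TRRAP exons overlap SMURF1 on the opposite strand, which had 30878 counts beside 105403 for TRRAP.

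SKP1, the SCF adaptor, did not pass in any comparison. It had 73.6, 72.5 and 71.3 CPM in EPZ5676 high cells and 73.3, 75.8 and 72.9 CPM in EPZ5676 low cells. Under DMSO it had 67.5, 97.8 and 66.0 CPM in high cells and 71.5, 78.1 and 84.8 CPM in low cells. The value of DMSO high replicate 2 was far above those of the other libraries of its group, and the same library had the lowest TRRAP level of all 18. Without it, SKP1 was lower in high than in low cells under DMSO by a log2 difference of -0.23 (adjusted p = 0.0070, edgeR), against -0.02 ± 0.10 (adjusted p = 0.908) with it. SKP1 exons overlap TCF7 on the opposite strand, with 2220 counts beside 25341 for SKP1, and 3 named SKP1 pseudogenes had 3840 counts in all.

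Counted over the set, 5 of the 9 measured members passed between high and low cells under each treatment. Under EPZ5676, 3 were higher (DOT1L, AFF1 and AFF3) and 2 lower (AFF4 and TRRAP), where 48.9% of all tested genes passed (25.8% higher and 23.1% lower). Under DMSO, 4 were higher (DOT1L, MLLT3, AFF1 and AFF3) and 1 lower (TRRAP), where 56.3% passed (29.6% higher and 26.7% lower). The members' share was near that of all genes. The median log2 difference of the 9 members was -0.01 under EPZ5676 and -0.02 under DMSO, and over all tested genes it was 0.02 and 0.03. Libraries of high and low cells did not overlap for 6 members under EPZ5676 and for 4 under DMSO, beside 60.3% of all tested genes under each treatment. Without the 6 libraries with a high no-feature share, EPZ5676 high replicate 3 was alone in its group, and the AFF1, AFF3, AFF4 and TRRAP calls under EPZ5676 were lost. Their log2 differences between EPZ5676 high and low cells were then 0.23, 0.30, -0.16 and -0.17. With all libraries they were 0.37, 0.28, -0.26 and -0.16. The lost calls cannot be told apart from the loss of replication.

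**Figure D3:**
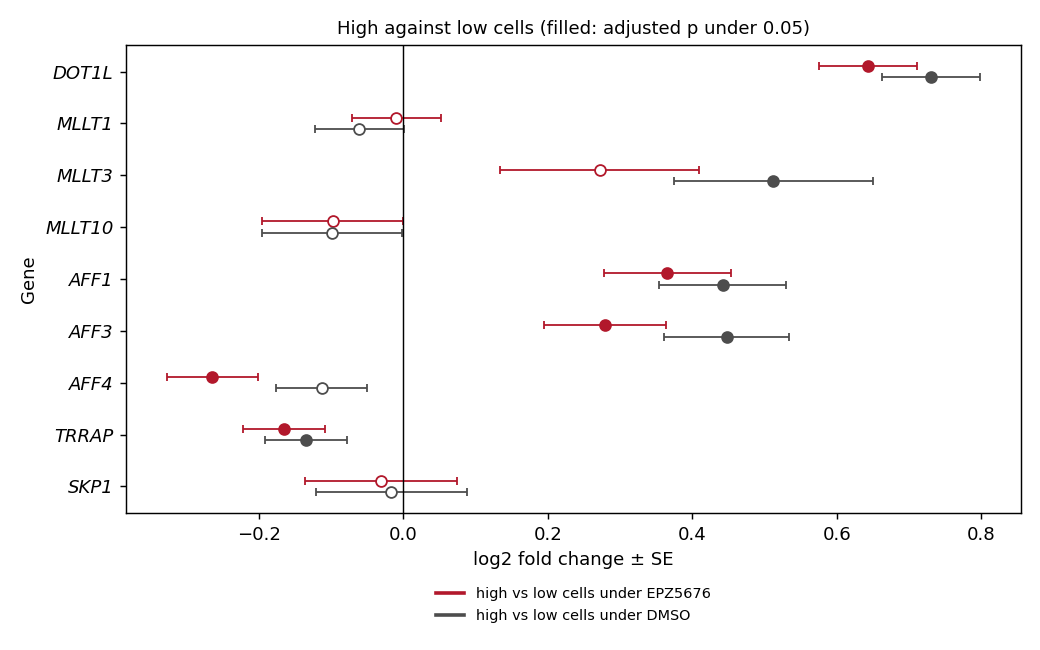
Log2 fold change of high against low cells for the 9 measured genes, under EPZ5676 in red and under DMSO in grey. Whiskers are the SE of the edgeR fit, and filled points passed at an adjusted p under 0.05. DOT1L, AFF1 and AFF3 are higher in high cells under both treatments. MLLT1, MLLT10, AFF4, TRRAP and SKP1 lie below 0 under both, and of these AFF4 passed under EPZ5676 and TRRAP under both treatments.

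Between EPZ5676 and DMSO, AFF3 was the 1 member called in bulk cells, where 0.728% of all tested genes passed. AFF3 was also the 1 member called in low cells, beside 1.04% of all tested genes, and in the average over high and low cells, beside 3.94%. In high cells edgeR called 0 of the 9 members, beside 3.0% of all tested genes; 2 members had an unadjusted p under 0.05, and DESeq2 and limma-voom also called 0. The interaction of EPZ5676 and sort called 0 members by edgeR, by DESeq2 and by limma-voom, with 0 at an unadjusted p under 0.05, beside 0.320% of all tested genes. Those shares of all genes depended on DMSO bulk replicate 1, since without it 552 genes passed in bulk, 2027 in high, 971 in low and 1942 in averaged cells, and 1081 for the interaction, against 132, 543, 188, 714 and 58 with it. For EPZ5676 against DMSO, MLLT3 had log2 differences of -0.11 for bulk, -0.16 for high and 0.08 for low cells. AFF4 had 0.03, -0.10 and 0.05, and SKP1 had 0.04, -0.09 and -0.08, in the same order of sorts. The interaction of EPZ5676 and sort was between -0.08 and 0.05 for MLLT1, MLLT10, AFF1, TRRAP and SKP1. The comparisons in bulk, high and low cells have separate libraries, but all use 1 shared estimate of the spread. With each fitted only on its own 6 libraries, AFF3 did not pass in bulk cells (adjusted p = 0.208, edgeR) but kept its call in low cells.

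**Figure D4:**
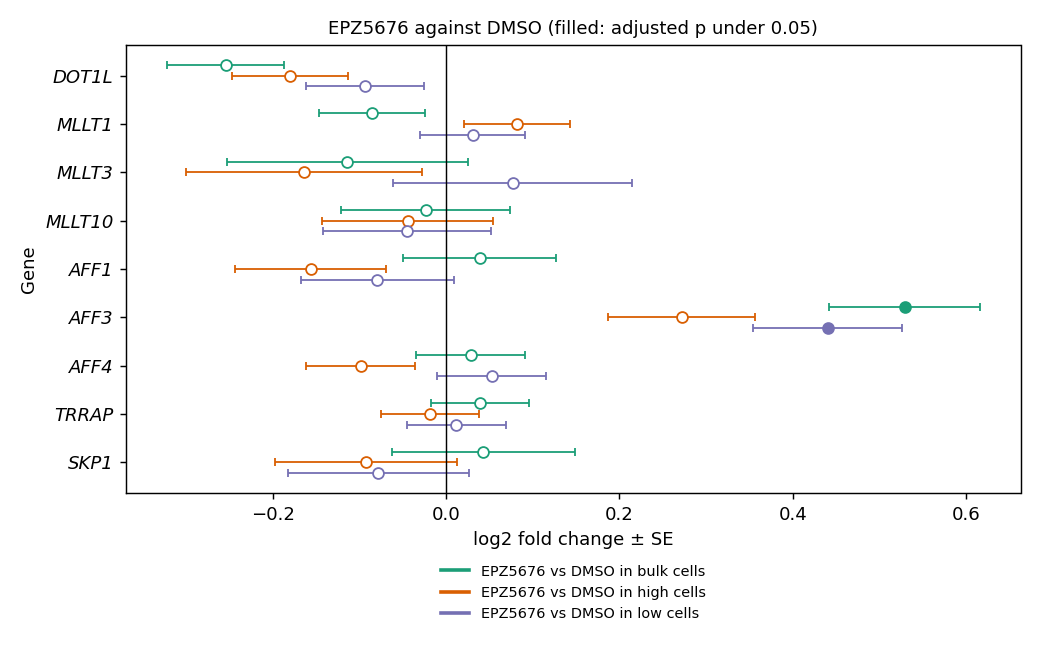
Log2 fold change of EPZ5676 against DMSO for the 9 measured genes in bulk, high and low cells. Whiskers are the SE of the edgeR fit, and filled points passed at an adjusted p under 0.05. AFF3 lies above 0 in all 3 sorts and DOT1L below 0, and the lowest of the other genes are MLLT3 and AFF1, both at -0.16 on the log2 scale in high cells.

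By a rule on likeness, the genes whose log2 level followed DOT1L most closely over the 18 libraries were MICALL2 (Pearson r 0.992), TCIRG1 (0.987), H2AZ2 (0.986), HOXB2 (0.985) and IFI44 (0.985), among 10494 named genes with a mean of at least 5 CPM. MICALL2 is a regulator of actin and membrane traffic, TCIRG1 a subunit of the vacuolar proton pump, H2AZ2 a histone H2A variant, HOXB2 a homeobox factor and IFI44 an interferon-induced gene. H2AZ2 averaged 222 ± 4.79 CPM in EPZ5676 high cells and 142 ± 5.20 CPM in EPZ5676 low cells, and 243 ± 14.8 CPM in DMSO high cells and 147 ± 5.61 CPM in DMSO low cells (SD, n = 3 each). The 18 libraries share their sort and treatment across genes, correlations within a sort were not computed, and the values are given as a description. On the same measure the members ran from 0.860 for AFF1, which ranked 1988 among the 10494 genes, and 0.753 for MLLT3 to -0.694 for AFF4 and -0.698 for TRRAP. AFF3 had 0.345, MLLT1 -0.285, MLLT10 -0.253 and SKP1 -0.054.

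Genes that work with these proteins were taken from 11 lists of 88 genes, of which 82 were tested. Between high and low cells they changed in both directions within most lists. Under EPZ5676, 19 were higher and 16 lower, which is 42.7% of the 82, and under DMSO 23 were higher and 26 lower, or 59.8%. These shares stand beside 48.9% and 56.3% of all tested genes. Without the 6 libraries with a high no-feature share, 19 rather than 35 of the 82 were called under EPZ5676. That omission left EPZ5676 high replicate 3 alone in its group. With all libraries, the median log2 difference of the 82 genes was 0.02 under EPZ5676 and 0.06 under DMSO.

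In the super elongation complex and P-TEFb list, ELL2, an elongation factor that AFF proteins carry, was higher in high cells by 2.05 ± 0.24 on the log2 scale under EPZ5676 and by 1.89 ± 0.24 under DMSO. ELL2 was the 1 gene of 7 called under EPZ5676. Its level was 34.2 to 45.4 CPM in EPZ5676 high cells and 8.43 to 10.2 CPM in EPZ5676 low cells, and 24.3 to 32.9 CPM in DMSO high cells and 6.93 to 8.44 CPM in DMSO low cells. Under DMSO, EAF2, a partner of ELL proteins, was lower by a log2 value of -0.44 ± 0.15. The 7SK particle holds P-TEFb inactive. Its inhibitor HEXIM1 was lower in high cells (-0.53 ± 0.09 under EPZ5676 and -0.59 ± 0.09 under DMSO), and its RNA-binding subunit LARP7 was higher (0.58 ± 0.08 and 0.53 ± 0.08), as was the capping enzyme MEPCE (0.36 ± 0.06 and 0.17 ± 0.06).

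In the PAF1 complex, which travels with RNA polymerase II and is needed for ubiquitination of histone H2B, 1 of 6 genes was higher and 3 lower under EPZ5676, and 2 were higher and 3 lower under DMSO. CDC73 was higher (0.33 ± 0.06 under EPZ5676 and 0.35 ± 0.06 under DMSO). WDR61 was lower (-0.54 ± 0.09 and -0.74 ± 0.09), and so were CTR9 (-0.25 ± 0.06 and -0.26 ± 0.06) and RTF1 (-0.20 ± 0.07 and -0.21 ± 0.07). Ubiquitin on H2B stimulates DOT1L. The H2B ubiquitin ligase subunit RNF20 was lower in high cells (-0.34 ± 0.07 and -0.31 ± 0.07) and the conjugating enzyme UBE2A was higher (0.25 ± 0.06 and 0.22 ± 0.06). USP51, which removes ubiquitin from H2B and H2A, was lower (-1.43 ± 0.19 and -1.49 ± 0.20), with 4.13 to 5.79 CPM in EPZ5676 high and 13.7 to 13.9 CPM in EPZ5676 low cells. Its level under DMSO was 2.91 to 4.55 CPM in high and 9.29 to 11.8 CPM in low cells.

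In the MLL1 and menin complex, PSIP1 (LEDGF), which tethers MLL1 to chromatin, was higher in high cells by 0.57 ± 0.06 under EPZ5676 and 0.55 ± 0.06 under DMSO. The core subunits WDR5 (-0.40 ± 0.06) and RBBP5 (-0.26 ± 0.07) were lower under DMSO. ASH2L of the same list was higher, by 0.23 under EPZ5676 and 0.16 under DMSO. Of the 8 genes in this list, 2 were higher and 0 lower under EPZ5676, and 2 were higher and 2 lower under DMSO. Of the 23 tested partners of TRRAP in TIP60 and SAGA, 3 were higher and 4 lower under EPZ5676, and 4 were higher and 6 lower under DMSO. The acetyltransferase KAT2B was lower (-0.53 ± 0.09 under EPZ5676 and -0.997 ± 0.09 under DMSO), as were the AAA+ proteins RUVBL1 (-0.34 ± 0.06 and -0.49 ± 0.06) and RUVBL2 (-0.33 ± 0.06 and -0.47 ± 0.06). The bromodomain subunit BRD8 was higher (0.57 ± 0.08 and 0.69 ± 0.08). Among 10 partners of SKP1 in SCF ligases, the F-box genes CCNF (0.95 ± 0.11 and 0.84 ± 0.11) and FBXW7 (0.38 ± 0.10 and 0.40 ± 0.10) were higher, and SKP2 was lower (-0.17 ± 0.06 and -0.49 ± 0.06).

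Beta-catenin, which can cooperate with DOT1L at target genes, and the TCF/LEF factors it binds had 3 genes higher and 3 lower of 7 under each treatment. The beta-catenin gene CTNNB1 was lower in high cells, with 431 to 449 CPM in EPZ5676 high and 689 to 716 CPM in EPZ5676 low cells, and 466 to 484 CPM in DMSO high and 769.7 to 778 CPM in DMSO low cells. TCF7 was higher (2.04 ± 0.39 under EPZ5676 and 3.14 ± 0.42 under DMSO), and so were TCF7L1 (1.30 ± 0.19 and 1.47 ± 0.19) and AXIN2, a target of the pathway (1.03 ± 0.22 and 2.02 ± 0.22). TCF7 had 2220 counts over the 18 libraries, and its exons overlap SKP1 on the opposite strand, which had 25341. With the strand setting not given, reads from the shared stretch cannot be told apart. The YEATS gene YEATS2 was lower (-0.24 ± 0.06 and -0.35 ± 0.06).

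Of 8 genes known to depend on DOT1L in leukaemia with MLL1 fusions, 5 were tested, namely HOXA5, MEIS1, PBX3, MEF2C and CDK6. HOXA5 did not pass between high and low cells under either treatment. HOXA9 had 0 counts in all 18 libraries, which allows up to 3 counts in each, and HOXA7 and HOXA10 had at most 7 and 3 counts in any library. MEF2C was higher in high cells (1.35 ± 0.28 under EPZ5676 and 1.65 ± 0.29 under DMSO), as was PBX3 (0.94 ± 0.13 and 0.81 ± 0.13). MEIS1 ran between 8.39 and 11.9 CPM over all libraries and did not pass. CDK6, a cell cycle kinase, was lower under DMSO (-0.36). Between EPZ5676 and DMSO 0 of the 5 passed in bulk, high or low cells by edgeR, DESeq2 or limma-voom, with 0 at an unadjusted p under 0.05, and the median log2 difference of the 5 was -0.02 for bulk, 0.06 for high and 0.13 for low cells.

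**Figure D5:**
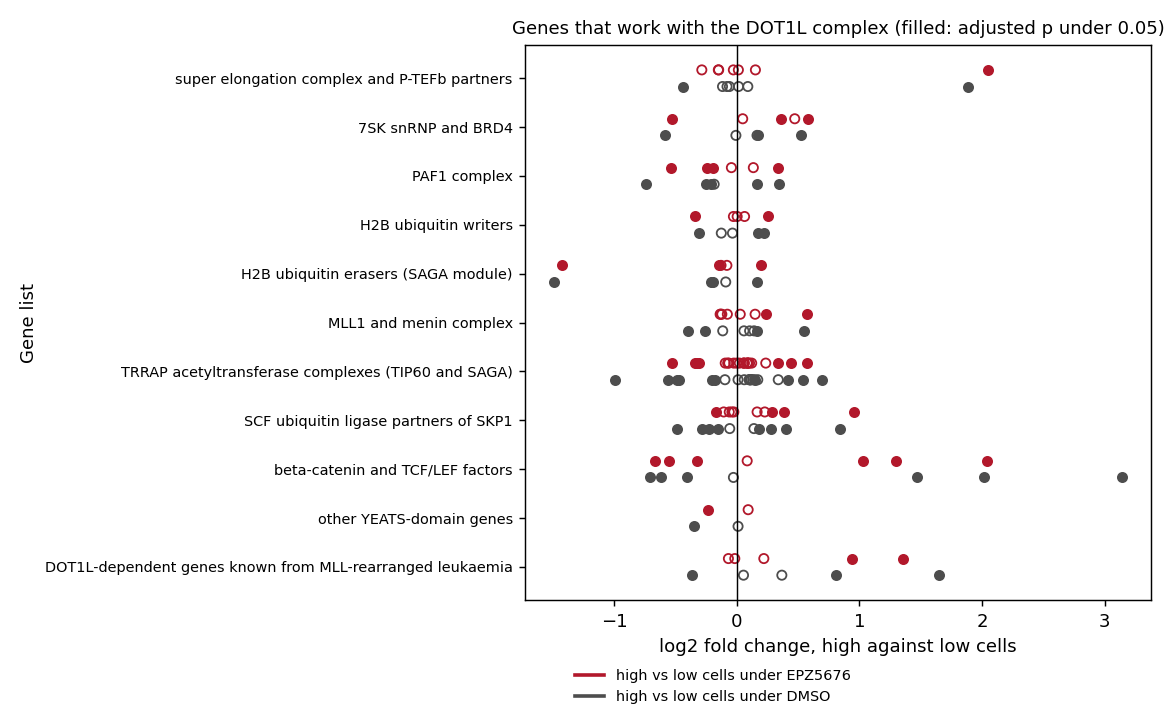
Log2 fold change of high against low cells for the 82 tested partner genes, 1 row per list, under EPZ5676 in red and under DMSO in grey. Filled points passed at an adjusted p under 0.05 by edgeR. Most lists hold called genes on both sides of 0, and TCF7 under DMSO lies farthest to the right while USP51 lies farthest to the left.

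Between EPZ5676 and DMSO, 0 to 2 of the 82 genes were called in each comparison by edgeR, and these counts moved with single libraries. By edgeR 0 were called in bulk, with 9 at an unadjusted p under 0.05, 1 by DESeq2 and 0 by limma-voom. In high cells 0 were called, with 14 at an unadjusted p under 0.05, 2 by DESeq2 and 1 by limma-voom. In low cells the cullin CUL1, the backbone of SCF ligases that holds SKP1, was the 1 called gene. CUL1 had 157 to 165 CPM in EPZ5676 low cells and 188 to 214 CPM in DMSO low cells, a log2 difference of -0.31 ± 0.07 (adjusted p = 0.0208, edgeR). In the average over high and low cells CUL1 (-0.18 ± 0.05, adjusted p = 0.0255, edgeR) and CKS1B (-0.22 ± 0.05, adjusted p = 0.0161, edgeR), a cofactor of SKP2, were lower. CUL1 had 152 to 163 CPM in EPZ5676 high cells and 155 to 170.2 CPM in DMSO high cells, which overlap. Leaving out 1 library at a time, the CUL1 call was kept in 13 of 18 fits in low cells and in 10 of 18 in the average, and the CKS1B call in 17 of 18. Without the 6 libraries with a high no-feature share 0 of the 82 genes were called in low cells and 0 in the average, so these calls were lost. That omission left EPZ5676 low replicates 2 and 3, and EPZ5676 high replicate 3 alone in its group. Leaving out DMSO bulk replicate 1 raised the number of genes called to 4 in bulk, 8 in high, 5 in low and 7 in averaged cells. The interaction called 0 of the 82 genes by edgeR, with 10 at an unadjusted p under 0.05, 1 by DESeq2 and 0 by limma-voom, and 6 by edgeR without DMSO bulk replicate 1.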

How the data were processed

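RNA of 18 WM989 libraries was measured by poly(A)-selected sequencing. The authors deposited raw counts per Ensembl gene and library. The submitters' processing notes name STAR, HTSeq and the build hg19. Tool versions, strand setting and annotation release are not given in the sources used here. The table held 63677 genes and 5 HTSeq summary lines per library, which stayed out of library sizes and tests. Between 12.8% and 28.7% of a library's reads fell on no feature, and between 6.07% and 7.71% were ambiguous.

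Counts were fitted in R 4.3.3 with edgeR 4.0.16 (filterByExpr by group, TMM factors, robust quasi-likelihood fit of 6 group means over 18 libraries). P-values were adjusted by Benjamini-Hochberg over all 18121 tested genes with a threshold of 0.05. The SE of a log2 fold change came from the F statistic. Levels are TMM-scaled CPM, and the correlations used log2 CPM with a prior count of 2. The steps were tested on simulated data. Levels were not compared between genes. Tables were made with pandas 2.3.3 and numpy 2.4.6 under Python 3.11.15, and figures with matplotlib 3.10.9.

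All members but MLLT6 were tested in every comparison, and their values are given singly or as a range; of the partner lists, the genes named are examples of those called. The members, lists and most alternatives were chosen with earlier results of these data known. Alternatives were RLE factors, library size alone, no filter, a filter on a mean CPM of 5, limma-voom (limma 3.58.1), DESeq2 1.42.0, a fit that was not robust, only the groups compared, a replicate block, a covariate for the no-feature share, omission of the 6 libraries where that share exceeds 16%, and omission of each library in turn. Leaving out those 6 and DMSO bulk replicate 1 together was chosen after seeing the data. The labels do not say that replicates are separate cultures, so p-values measure only the spread between these samples.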

Additional observations from a re-analysis of the deposited data

How the results depend on the processing

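Counts of the 9 members called were taken under each alternative. Omission of the 6 libraries with a high no-feature share left EPZ5676 bulk replicate 2 and EPZ5676 high replicate 3 as the only libraries of their groups. Whether calls lost under that omission reflect this loss of replication was not tested. EPZ5676 against DMSO in bulk cells gave 1 as reported, 2 with no filter and with DESeq2, and 0 with only the groups compared, without the 6 libraries with a high no-feature share, and without those and DMSO bulk replicate 1; leaving out 1 library gave 1 to 2. In high cells it was 0 as reported and 0 to 2 on leaving out 1 library. In low cells it was 1, and 0 without the 6 libraries, with 0 to 1 on leaving out 1 library. In the average it was 1, then 2 with only the groups compared, 0 without the 6 libraries, and 1 to 2 on leaving out 1 library. High against low cells gave 5 under EPZ5676, fewer without the 6 libraries, and 4 to 5 on leaving out 1 library. Without the 6 libraries and DMSO bulk replicate 1 the MLLT3 log2 difference was 0.53, with EPZ5676 high replicate 3 alone in its group. Under DMSO high against low cells gave 5, and 4 to 5 on leaving out 1 library. The interaction gave 0 throughout. No direction of a called member or partner gene reversed. Without the 6 libraries 5 ratios moved: AFF1 to AFF4 to -0.19 in bulk and -0.29 in high cells for EPZ5676 against DMSO and to 0.39 between EPZ5676 high and low cells, AFF3 to AFF4 to 0.25 in high cells for EPZ5676 against DMSO, and MLLT3 to MLLT1 to 0.50 between EPZ5676 high and low cells. Over all genes the counts moved more: in bulk cells 132 as reported, 440 with no filter, 290 with DESeq2, 2 with only the groups compared, 50 with the covariate and 0 without the 6 libraries; in high cells 543, with 948, 1409 (only the groups compared) and 4 (without the 6 libraries); in low cells 188, with 373, 317, 1035 and 6, and 448 without DMSO bulk replicate 1 as well; in the average 714, with 1653 and 44; for high against low cells under EPZ5676 8858, with 4304; for the interaction 58, with 304, 177, 35 (not robust), 861, 0 and 281. Leaving out 1 library moved these counts to 39 to 552 in bulk, 200 to 2027 in high, 62 to 971 in low and 415 to 1942 in averaged cells, 7993 to 9389 and 9407 to 10666 between sorts under EPZ5676 and DMSO, and 14 to 1081 for the interaction, and the 82 partner genes called to 0 to 4, 0 to 8, 0 to 5 and 0 to 7 for EPZ5676, 32 to 38 and 42 to 52 between sorts, and 0 to 6 for the interaction. Library size alone gave 4067 genes higher and 4931 lower between EPZ5676 high and low cells, against 4668 and 4190, and 4746 and 5564 under DMSO, against 5355 and 4844. For EPZ5676 against DMSO it gave 430 higher and 144 lower in high cells, against 354 and 189, and 512 and 195 in the average, against 434 and 280. Same-numbered libraries did not deviate together: correlations over 45 pairs ran from -0.34 to 0.296, and in 18 of them the library matched its own number best. With the replicate block the members called were 1, 0, 1 and 1 for EPZ5676 and 5 and 5 between sorts, and all genes called in bulk cells were 129. MLLT3 and AFF3 had the fewest counts of the 9 members.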
